A study of Mus musculus with 12 samples.

Results

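Small H3K27me3 domains that were found in all 4 H3K27me3 peak lists and held no H3K4me3 peak numbered 2109, of 14402 H3K27me3 domains in all (14.6%). They were chosen from the peak lists by joining H3K27me3 peaks of the 4 lists that overlapped or lay less than 3000 bp apart. A joined domain was kept when it was under 10000 bp wide, held a peak of each of the 4 H3K27me3 lists and overlapped no peak of any of the 4 H3K4me3 lists by 1 bp or more. They made up 40.7% of the 5177 domains found in all 4 lists. The other 4-list domains were 1249 under 10 kb with an H3K4me3 peak, 828 of 10 kb or wider without one and 991 of 10 kb or wider with one. Presence in a list, width and absence of H3K4me3 chose the members, so these are a description and not a finding.

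The lists came from chromatin immunoprecipitation with sequencing (ChIP-seq) of primary mouse embryonic fibroblasts (MEFs) on a hybrid 129/B6 background. The 4 conditions were lincRNA-p21+/+ cells (WT) and lincRNA-p21-/- cells (KO), each mock treated or kept for 24 h in doxorubicin, whose concentration the labels give as 0.5 mM, a unit that is high for cell culture and could not be checked here. LincRNA-p21 is a long noncoding RNA that p53 induces, and doxorubicin damages DNA and so activates p53. Each mark and condition had 1 library, so every difference between conditions given here lacks a replicate check and no p-value was computed. The number of embryos or cultures behind a library is not given in the sources used here. Sets of 4 values below follow the order WT mock, WT doxorubicin, KO mock, KO doxorubicin.

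H3K27me3 is laid down by the EZH1 or EZH2 subunit of Polycomb repressive complex 2 (PRC2) and is read by its EED subunit and by the CBX proteins of Polycomb repressive complex 1, a loop by which a marked stretch can maintain and extend itself. H3K4me3 marks promoters that are active or poised, and a promoter with both marks is called bivalent. The domains described here carried the Polycomb mark with no listed promoter mark, the state usually linked with stable silencing or with Polycomb chromatin away from promoters. No gene, exon or promoter is named for them, since the coordinates are those of mouse build mm9 and no annotation or sequence of that build was used.

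The H3K27me3 lists held 16160 to 17828 peaks and the H3K4me3 lists 14326 to 16477. Between 18.7 and 19.5% of the H3K27me3 peaks of a library lay in the small domains without H3K4me3, and these held 14.5 to 15.6% of the length that its peaks covered. Peaks were widest in the WT mock library, with a median of 2015 bp over its whole list against 1310 to 1475 bp in the other 3. Read depth per library is unknown, because the lists give no read counts, so that depth and enrichment cannot be told apart from treatment or genotype in any comparison below.

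The small domains were a few kilobases wide. Their median width was 5082 bp, the middle 50% lay between 3560 and 7247 bp, and the lowest and highest were 1306 and 9994 bp. Just inside the width limit was a domain on chr8:92154739-92164732 (9994 bp), and just outside it was one on chr9:43434301-43444309 (10009 bp). The nearest H3K4me3 peak to any member lay 8 bp from its edge, and the smallest overlap that removed a domain was 15 bp. The smallest gap from a member to the next H3K27me3 domain was 3005 bp. In 560 of the 2109 (26.6%, exact 95% binomial interval 24.7 to 28.5) each library had exactly 1 peak. This held for 18.2% of all 4-list domains and 30.2% of those under 10 kb with H3K4me3. The share of members with 2 or more peaks was 35.9, 41.6, 41.1 and 42.2% by library. For all 4-list domains it was 52.8, 58.8, 57.2 and 59.5%, and for those under 10 kb with H3K4me3 27.9, 38.8, 36.4 and 41.9%. Of the members 454 (21.5%) had 1 peak in WT mock and 2 or more in KO doxorubicin cells, against 17.9% of all 4-list domains and 24.7% of those under 10 kb with H3K4me3. The reverse held for 322 (15.3%), against 11.3% and 10.7%.

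**Figure D1:**
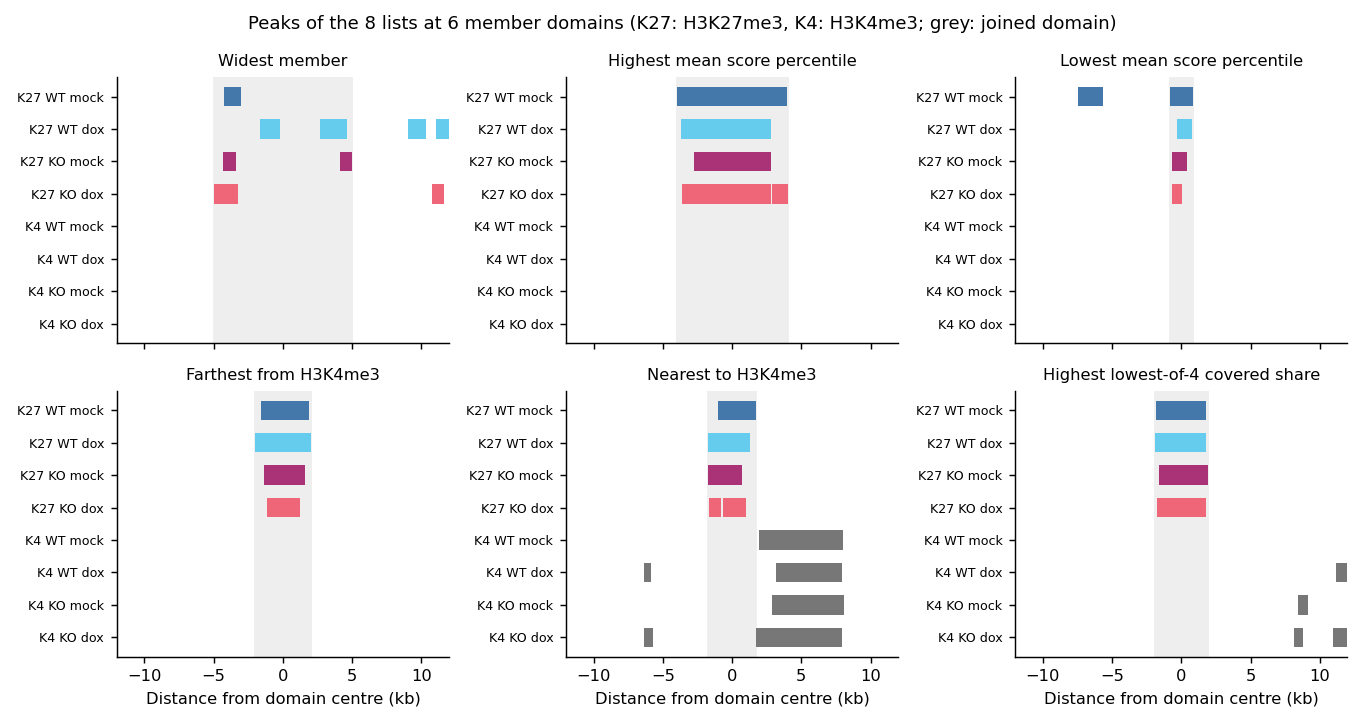
Each panel plots the peaks of the 4 H3K27me3 lists (K27, coloured) and the 4 H3K4me3 lists (K4, grey) as bars against the distance from the centre of 1 member domain in kb, with the joined domain shaded. The widest member is made of scattered peaks and has no base covered in all 4 libraries, while the highest-ranked member and the member with the most even coverage have stacked peaks in the 4 libraries.

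Members differed greatly in how far the 4 libraries marked the same bases. The member with the highest mean score percentile was chr17:93596816-93604846 (8031 bp). Its H3K27me3 peaks covered 99.3, 81.2, 69.0 and 93.3% by library. A stretch of 5527 bp was covered in all 4 libraries, and its nearest H3K4me3 peak was 1543019 bp away. The member whose least covered library was covered most was chr7:26151504-26155298 (3795 bp). It was covered to 95.5%, 97.0%, 91.9% and 93.1%, by 1 peak in each. The widest member, named above on chromosome 8, was the opposite case, covered to 12.4%, 33.8%, 18.6% and 17.7% in the same order with no base shared by the 4 libraries. Its listed peaks met the rule because they lay less than 3000 bp from one another.

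The length covered in all 4 libraries, called the common core here, had a median of 890 bp, or 19.6% of the domain. It reached 7020 bp on chr19:43456997-43465098, where peaks covered 89.3%, 92.9%, 96.1% and 94.7% of 8102 bp. In 487 members (23.1%, interval 21.3 to 24.95) the common core was empty, against 13.02% of all 4-list domains, members included. Among 4-list domains under 10 kb with H3K4me3 it was empty in 4.32%, and among those of 10 kb or wider without H3K4me3 in 13.5%. These classes differ in score rank, which this contrast does not account for. Shares in like ranges of rank are given below. A core of at least 1000 bp was found in 944 members (44.8%, interval 42.6 to 46.9), against 68.3% of all 4-list domains. The centre of the core lay between 26.4 and 73.2% of the domain's length in the middle 80% of the 1622 members with a core.

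Scores ranked in the middle of their lists or somewhat above. A peak's score was given by the authors as minus 10 times the log10 of its p-value, and it was ranked only within its own list. For each member the highest score of its peaks was taken and turned into a percentile of all peaks of that list. The median percentile was 64.8, 63.3, 61.8 and 61.1 by library. For 4-list domains under 10 kb with H3K4me3 the medians were 82.8, 82.4, 84.0 and 85.5 in that order, and for those of 10 kb or wider without H3K4me3 they were 80.7, 79.8, 78.1 and 78.1. Just 37 members (1.75%) were in the upper 10% of every list, against 18.5% of all 4-list domains. Domains under 10 kb with H3K4me3 had a median width of 5519 bp, against 5082 bp for the members. Both classes held a median of 1 peak in each library. Domains of 10 kb or wider without H3K4me3 held a median of 3. Their highest score was thus taken from more peaks, and the part of this in their ranks was not tested.

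The highest mean percentiles belonged to the domain on chromosome 17 named above (98.3) and to chr9:106045878-106055378 (98.1), chr7:31831624-31840446 (97.9), chr19:43456997-43465098 (97.7) and chr18:61170657-61179779 (97.1). The domain on chromosome 9 had scores of 2059, 1882, 1756 and 1593 by library. It lay 6220 bp from the nearest H3K4me3 peak. The domain on chromosome 7 lay 3849 bp from one, the domain on chromosome 19 lay 49476 bp away and that on chromosome 18 lay 24518 bp away. The highest-ranked members were thus found both close to and far from H3K4me3. At the other end, chr5:36083004-36084651 had 1 peak in each library with scores of 83.3, 83.9, 86.7 and 86.1, near the score of 80 under which the lists hold no peak. Domain chr8:96890842-96892561 had scores of 83.5, 86.5, 83.1 and 89.99 in the same order. In 661 members (31.3%, interval 29.4 to 33.4) the best score was under 100 in 1 or more libraries, against 16.4% of all 4-list domains.

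The common core grew with the score rank. Members were split into 4 groups of equal size by their mean percentile. In the lowest group, with mean percentiles up to 45.3, the median core was 0 bp and 288 of 528 members (54.5%) had none. In the next group, 150 of 527 had none and the median core was 617 bp. In the next, 47 of 527 had none and the median was 1120 bp. In the highest group, with mean percentiles from 72.2, 2 of 527 had none and the median was 2382 bp, or 44.3% of the domain. The share without a core also fell with rank in other 4-list domains. At mean percentiles up to 50, over 50 to 75 and over 75 to 90, 48.7, 14.4 and 0.262% of members had none. Domains under 10 kb with H3K4me3 had 28.4, 7.72 and 0.203%, and those of 10 kb or wider without H3K4me3 had 74.3, 18.98 and 0.323%. Up to 50 these were 721 members, 95 and 74 domains. Core length and mean percentile had a Spearman correlation of 0.813 over the 2109 members as a description, since both come from the same peaks. The width of the whole domain was less tied to rank (0.294), and the distance to H3K4me3 showed almost no relation with it (-0.018).

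**Figure D2:**
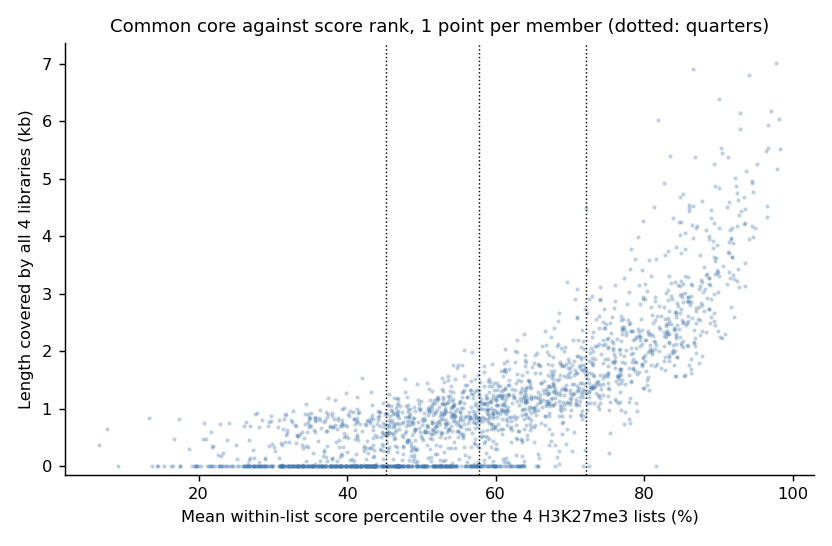
Each point is 1 of the 2109 members, with its mean score percentile over the 4 H3K27me3 lists on the x axis and the length in kb covered by peaks of all 4 libraries on the y axis. Members without a common core lie on the 0 line and are mostly left of the rightmost dotted line, beyond which 2 of 527 have none.

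Ranks of members were alike between libraries to a moderate degree. Over the members the Spearman correlation of the score percentile between 2 libraries was 0.499 (WT mock with KO doxorubicin) to 0.588 (WT mock with KO mock). That of the covered length was 0.468 to 0.570. Over all 4-list domains, which span a wider range of ranks and widths, these were 0.787 to 0.844 and 0.783 to 0.838. Libraries share the build and the peak caller, and the points are neighbouring stretches of 1 genome, so no p-value was attached.

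The covered share was highest in WT mock and lowest in KO doxorubicin cells. The median share of a member covered by peaks was 71.1, 54.0, 48.9 and 46.8% by library, or 3218 bp, 2502 bp, 2301 bp and 2200 bp. The ranges overlapped widely, from 11.3 to 100% in WT mock and from 6.65 to 100% in KO doxorubicin cells. WT mock had the longest covered length of the 4 libraries in 1176 members (55.8%, interval 53.6 to 57.9), WT doxorubicin in 394, KO mock in 300 and KO doxorubicin in 239. For all 4-list domains these shares were 57.8, 17.6, 12.05 and 12.5% by library, close to the members' 55.8, 18.7, 14.2 and 11.3%. In 491 members (23.3%) each of the 4 libraries covered at least 50% of the domain, against 37.1% of all 4-list domains.

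**Figure D3:**
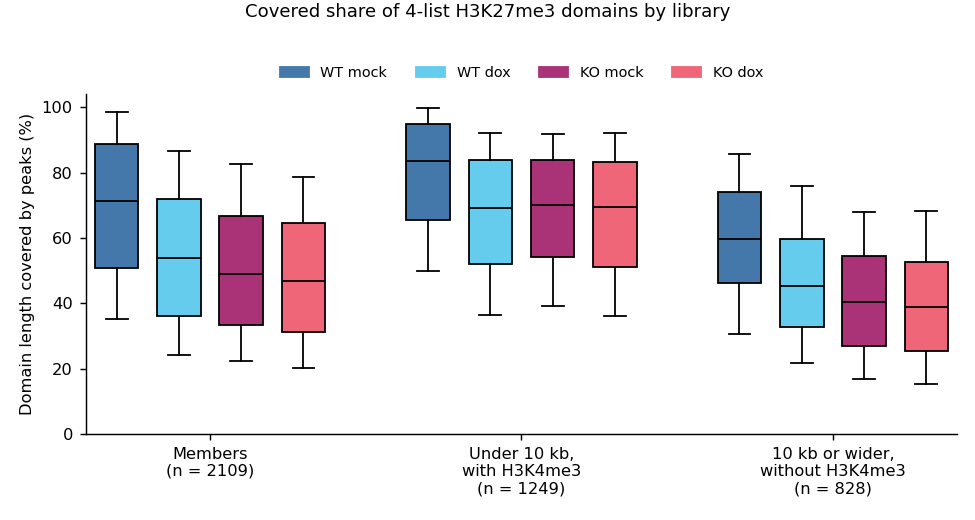
Boxes show the share of a domain's length covered by H3K27me3 peaks of each library (median, 25th to 75th percentile, whiskers from the 10th to the 90th) for the members and 2 other classes of 4-list domains. WT mock is highest in each class. In the order WT mock, WT doxorubicin, KO mock and KO doxorubicin, the members' medians are 71.1, 54.0, 48.9 and 46.8%. Those of small domains with H3K4me3 are 83.7, 69.1, 70.2 and 69.3%, and those of wide domains without it 59.6, 45.1, 40.5 and 38.9%.

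Doxorubicin against mock in WT cells asks where the DNA damage response moved the mark with lincRNA-p21 present. The covered length of the members was mostly shorter with doxorubicin, with a median ratio of 0.786 and 1507 members shorter against 602 longer. It was at least 1.5-fold lower in 746 members (35.4%, interval 33.3 to 37.5), against a background of 31.3% of the 6679 domains of any kind with a peak in both lists. It was at least 1.5-fold higher in 183 members (8.68%, interval 7.51 to 9.96), against a background of 6.75%. Of the 4-list domains of 10 kb or wider without H3K4me3, 33.8% were that much lower and 7.005% higher. Of those under 10 kb with H3K4me3, 23.6% were lower and 4.72% higher. The rule asked for a peak in both lists, so domains that lost or gained the mark altogether are not among them. Dividing each library by its median covered length over all 4-list domains (4865, 3883, 3705 and 3553 bp by library) left 438 lower and 364 higher, against backgrounds of 17.95% and 14.5%. The median ratio over all 4-list domains was 0.833 before that division.

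The lowest doxorubicin over mock ratio in WT was on chr6:51714967-51722263 (7297 bp), 151705 bp from H3K4me3. Peaks covered 6933, 771, 3976 and 2755 bp by library, an 8.99-fold lower length in WT doxorubicin than in WT mock cells. Domain chr13:74209144-74217513 had 6164, 771, 6190 and 920 bp by library. It was thus long in both mock libraries and short in both doxorubicin libraries, and it is among the 3 lowest ratios in each genotype. Domain chr14:32719917-32726407 had 5256 bp, 750 bp, 2780 bp and 1017 bp in the same order. The highest ratios were on chr8:12572643-12579550, with 816 bp in WT mock and 3472 bp in WT doxorubicin cells, and on chr14:63921159-63926781, with 1383 and 4940 bp. On chr15:78522798-78529709 the lengths were 1602 and 5566 bp. The lower of the paired values came in these 3 from a single peak with a score of 82.8 to 85.4, near the floor of the lists.

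Doxorubicin against mock in KO cells puts the same question without lincRNA-p21. Here the members were nearly balanced, with a median ratio of 0.961, 1132 members shorter and 977 longer with doxorubicin. The covered length was at least 1.5-fold lower in 484 (22.9%, interval 21.2 to 24.8; background 18.2% of 6296 domains) and at least 1.5-fold higher in 382 (18.1%, interval 16.5 to 19.8; background 14.96%). Of the 4-list domains of 10 kb or wider without H3K4me3, 20.9% were that much lower and 15.8% higher. Of those under 10 kb with H3K4me3, 13.5% were lower and 9.85% higher. After division by the library medians, 440 members were lower (background 16.2%) and 416 higher (background 16.6%). On chr13:95733772-95739105 peaks covered 811 bp without and 4397 bp with doxorubicin in KO cells, and 4188 and 3750 bp in WT mock and WT doxorubicin cells, so that KO mock alone was low. On chr10:94438112-94445175 KO doxorubicin alone was high, with 4823 bp against 932 bp in KO mock, 1702 bp in WT mock and 2008 bp in WT doxorubicin cells. On chr7:28839205-28845489 KO mock was again the low library, with 1152 bp against 5487, 4136 and 5584 bp in WT mock, WT doxorubicin and KO doxorubicin cells. Among the lowest ratios, chr2:92278865-92285781 had 4222 bp without and 564 bp with doxorubicin in KO cells. Domain chr8:127293206-127301957 had 5388 and 770 bp.

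The 2 doxorubicin comparisons share no library, so their ratios can be set side by side. Of the members 201 (9.53%) were at least 1.5-fold lower with doxorubicin in both genotypes and 59 (2.80%) at least 1.5-fold higher in both. Another 126 (5.97%) were lower in WT and higher in KO cells, and 40 (1.90%) the reverse. For all 4-list domains the corresponding shares were 8.09%, 2.12%, 3.98% and 1.06%. After division by the library medians, 110 members were lower in both (5.22%, against 4.56% of all 4-list domains) and 118 higher in both (5.595% against 4.21%). Another 85 were then lower in WT and higher in KO cells (4.03% against 2.61%) and 71 the reverse (3.37% against 2.01%). The log2 ratios in WT and KO cells had a Pearson correlation of 0.109 over the members and 0.176 over all 4-list domains.

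**Figure D4:**
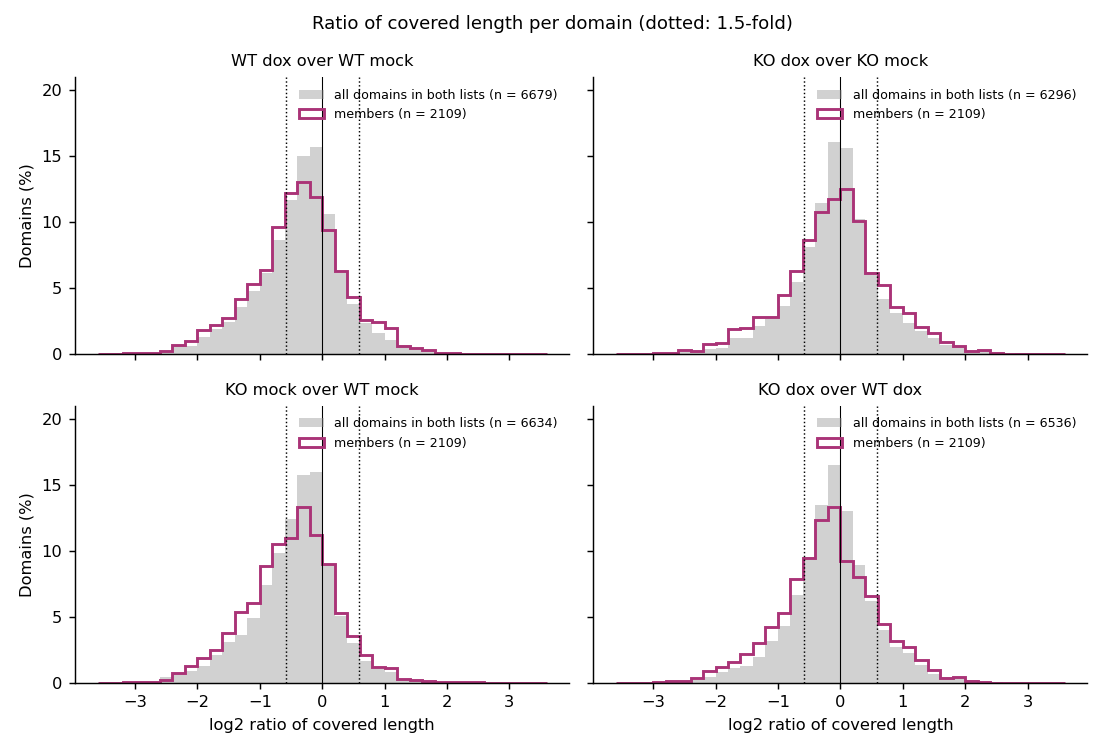
Histograms show the log2 ratio of covered length per domain in the 4 comparisons, in percent of domains, for the 2109 members (line) and for all domains with a peak in both lists (grey), with dotted lines at 1.5-fold. The medians lie left of 0, farthest for WT doxorubicin over WT mock and KO mock over WT mock, while the ratios of single domains fall on both sides of 0. In each panel a larger share of the members than of all domains lies beyond each dotted line.

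KO against WT in mock-treated cells compares the mark with and without lincRNA-p21 in the absence of induced damage. The covered length of the members was mostly shorter in KO cells, with a median ratio of 0.740, 1621 members shorter and 488 longer. It was at least 1.5-fold lower in 888 members (42.1%, interval 39.99 to 44.2), against a background of 35.4% of 6634 domains, and at least 1.5-fold higher in 114 (5.41%, interval 4.48 to 6.46), against 4.40%. After division by the library medians, 481 were lower (22.8%; background 17.97%) and 304 higher (14.4%; background 12.6%). Of the 4-list domains of 10 kb or wider without H3K4me3, 42.1% were at least 1.5-fold lower and 2.90% higher before the division. After it 21.6% were lower and 8.21% higher. The members' share of lower ratios was thus like that of these wide domains. Of those under 10 kb with H3K4me3, 20.02% were lower and 5.20% higher before, and 7.21% and 16.01% after. With 1 library each, the wide peaks of the WT mock library cannot be told apart from an effect of genotype. Domain chr11:84463274-84469694 had 5404, 3314, 623 and 1033 bp by library, and so was long in WT and short in KO cells under both treatments. Domain chr2:92998379-93005255 had 4686, 2258, 665 and 1363 bp in that order, and chr11:33579980-33587865 had 6960, 2550, 1044 and 2320 bp. The highest ratios were led by chr18:81839242-81848139, with 1008 bp in WT mock and 5663 bp in KO mock cells. They also included chr8:12572643-12579550, named above, with 816 and 4189 bp. On chr13:41184775-41189600 a peak with a score of 592 covered 4492 bp in KO mock cells, and a peak with a score of 108 covered 1098 bp in WT mock cells.

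KO against WT in doxorubicin-treated cells asks the same under DNA damage. The members were again shorter in KO cells more often than longer, with a median ratio of 0.879, 1309 shorter, 799 longer and 1 equal. The covered length was at least 1.5-fold lower in 583 (27.6%, interval 25.7 to 29.6; background 20.8% of 6536 domains) and at least 1.5-fold higher in 301 (14.3%, interval 12.8 to 15.8; background 12.7%). After division by the library medians, 471 were lower (22.3%, background 16.1%) and 385 higher (18.3%, background 16.3%). Of the 4-list domains of 10 kb or wider without H3K4me3, 28.02% were lower and 10.02% higher before the division. After it 21.9% were lower and 12.6% higher, so the share of lower ratios was again like the members'. Of those under 10 kb with H3K4me3, 11.4% were lower and 11.4% higher before, and 7.77% and 15.7% after. On chr7:143687357-143695419 peaks covered 5487 bp in WT doxorubicin and 695 bp in KO doxorubicin cells, with 4490 and 1476 bp in WT mock and KO mock cells. Domain chr1:91204878-91214588 had 5711 bp in WT doxorubicin and 850 bp in KO doxorubicin cells, and chr19:4862957-4870754 had 5582 and 897 bp. The highest ratios were led by chr1:93624155-93629994 (1078 and 5091 bp), chr11:94558398-94565347 (998 and 4231 bp) and chr15:37223566-37232071 (943 and 3839 bp). In each of the 24 extreme ratios named by rule over the 4 comparisons, the shorter length was a single peak, and in 18 its score was under 100, while no longer length had a best score under 100. The KO against WT ratios in mock and in doxorubicin cells share no library, and their log2 values had a Pearson correlation of 0.048 over the members and 0.101 over all 4-list domains. Of the members 273 (12.9%) were at least 1.5-fold lower in KO cells under both treatments against 8.96% of all 4-list domains, and 29 at least 1.5-fold higher under both, against 58 of the 5177. Another 139 (6.59% against 4.29%) were lower in mock and higher in doxorubicin cells, and 32 (1.52% against 0.946%) the reverse. After division by the library medians, 132 were lower under both (6.26% against 4.04%) and 68 higher under both (3.22% against 2.72%). The opposite patterns then held 92 (4.36% against 2.80%) and 70 members (3.32% against 2.11%).

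The median KO over WT ratio was lower in members than in small domains of like rank with H3K4me3, by a small gap in the highest ranks. Up to a mean percentile of 50 the mock ratio was 0.667 for 721 members and 0.771 for 95 such domains, and the doxorubicin ratio 0.847 and 0.922. Among members with a mean percentile over 50 and up to 75 (939 domains), the median KO over WT ratio was 0.722 in mock and 0.892 in doxorubicin cells. Among the 337 domains under 10 kb with H3K4me3 in that range of ranks it was 0.872 and 1.02. In the range over 75 and up to 90 the ratios were 0.794 and 0.874 for 381 members and 0.862 and 1.01 for 493 domains with H3K4me3. Over 90 the classes were alike in doxorubicin cells, at 0.957 for 68 members and 0.963 for 324 domains with H3K4me3, and in mock cells at 0.886 and 0.894. For ranks over 50 and up to 75, the doxorubicin over mock ratio was 0.761 for members and 0.779 with H3K4me3 in WT cells and 0.971 and 0.928 in KO cells. Over 75 and up to 90 it was higher in members, at 0.883 and 0.846 in WT and 0.991 and 0.983 in KO cells. Up to 50 it was 0.727 and 0.755 in WT and 0.925 and 0.993 in KO cells. Over 90 it was 0.874 and 0.929 in WT and 0.957 and 1.00 in KO cells. That was a wider gap between the classes than that of KO over WT in those ranks. For ranks over 50 and up to 75, domains of 10 kb or wider without H3K4me3 had KO over WT ratios of 0.628 in mock and 0.791 in doxorubicin cells. Both were below the members' ratios in that range of ranks. These are values of 1 library per condition, and whether the gap exceeds the variation between cultures was not tested.

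Members lay from a few bases to over 1000 kb from H3K4me3. The median distance from the edge of a member to the nearest H3K4me3 peak of any list was 22746 bp, the middle 50% lay between 7784 and 55707 bp, and the farthest was 3362433 bp. To the H3K4me3 list of each library alone it was 25862, 23886, 29621 and 27774 bp. The list with the most H3K4me3 peaks, WT doxorubicin, was the nearest, and the shortest list, KO mock, was the farthest. The farthest member was on chr8:101937774-101941784 (4011 bp), a single peak in each library with scores of 526, 713, 428 and 510. Peaks covered 86.1, 100, 75.02 and 59.3% of it in that order. The next were the highest-ranked member on chromosome 17, and domains on chr18:72508053-72511793 (1218934 bp away), chr6:105626470-105630138 (1088406 bp) and chr15:71551171-71560882 (1078046 bp). These 5 remote members had mean percentiles of 75.3 to 98.3, all above the members' median of 57.7.

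An H3K4me3 peak lay within 1 kb of 86 members (4.08%, interval 3.27 to 5.01) and within 5 kb of 370 (17.5%, interval 15.9 to 19.2), against 2.73% and 12.9% of the 11572 H3K27me3 domains of any kind without an overlapping H3K4me3 peak. In 263 members (12.5%) none lay within 100 kb, against 10.4% of the 4-list domains of 10 kb or wider without H3K4me3. The median distance was 22589 bp for 4-list domains of 10 kb or wider without H3K4me3, 25016 bp for small domains of 3 lists, 29876 bp for those of 2 lists and 32813 bp for those of 1 list. Width moved with these distances, with medians of 14472.5, 3460.5, 2211 and 1135 bp in the same order, and its part in them was not tested. The nearest members, on chr5:75543609-75547096 and chr6:142701044-142704776, ended 8 and 20 bp from an H3K4me3 peak. On chromosome 5 the H3K27me3 peaks covered 79.6%, 86.2%, 70.3% and 74.6% of the domain.

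**Figure D5:**
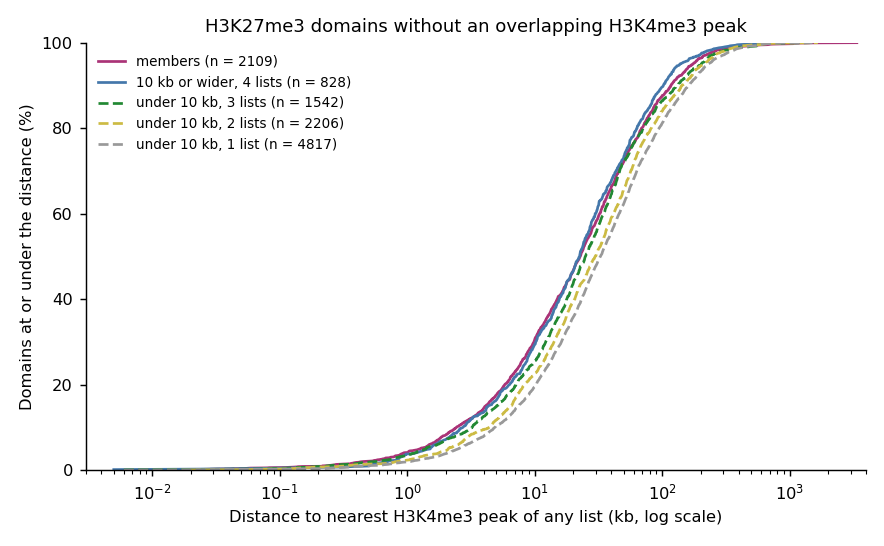
Curves show the percent of H3K27me3 domains without an overlapping H3K4me3 peak whose nearest H3K4me3 peak of any list lies at or under the distance on the x axis (kb, log scale), for the members and 4 other classes. The members and the 4-list domains of 10 kb or wider run together, with medians of 22746 and 22589 bp, and domains found in fewer lists lie to the right.

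Members within 1 kb of H3K4me3 ranked higher and had a common core more often than the rest. Their median mean percentile was 65.9, and 12.8% had no common core. At 1 to 5 kb these were 58.4 and 20.1%, at 5 to 20 kb 57.0 and 23.5%, at 20 to 100 kb 57.3 and 26.5%, and beyond 100 kb 58.0 and 17.5%. Before division by the library medians, members were shorter in KO than in WT cells at every distance. The median ratios were 0.716 to 0.775 in mock and 0.858 to 0.947 in doxorubicin cells. Over all 4-list domains the corresponding medians were 0.800 and 0.925. After the division they were 0.971 and 0.960 over all members, and they were not computed by distance. The WT doxorubicin over mock ratio before division was 0.749 to 0.806 over the distance classes, against 0.833 over all 4-list domains.

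The H3K4me3 region nearest to a member (overlapping H3K4me3 peaks joined over the 4 lists) overlapped another H3K27me3 domain in 33.0% of cases, against 20.5% of all 16628 H3K4me3 regions. The joining rule keeps H3K27me3 domains at least 3000 bp apart and so limits this share at short distance. For members within 1 kb it was 0.0%, at 1 to 5 kb 10.9%, at 5 to 20 kb 38.0%, at 20 to 100 kb 38.9% and beyond 100 kb 36.9%. Beyond 5 kb, the nearest H3K4me3 region thus overlapped a joined H3K27me3 domain more often than H3K4me3 regions in general. Such a domain can include gaps between peaks and can come from 1 list. The marks may also come from different conditions, so this overlap does not show both marks at the same bases. The share for H3K4me3 regions nearest to other H3K27me3 domains is not given here. The nearest region was in the H3K4me3 list of a given library for 86.8, 94.97, 79.2 and 82.6% of members. For all H3K4me3 regions these were 88.7%, 94.8%, 82.2% and 87.4%.

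Another H3K27me3 domain lay within 10 kb of 1256 members (59.6%, interval 57.4 to 61.7), against 56.3% of all 4-list domains. That neighbour was a domain not found in all 4 lists in 55.2% of these 1256, another member in 19.2%, a domain of 10 kb or wider without H3K4me3 in 9.79% and one with H3K4me3 in 9.32%. For all 14402 domains these classes made up 64.1%, 14.6%, 5.75% and 6.88%. The members were spread unevenly over the chromosomes, as were all 4-list domains. Chromosome 2 held 212, chromosome 4 held 200 and chromosome 11 held 183, while chromosome 3 held 56 and chromosome X held 6. Per 100 H3K4me3 regions there were 18.4 members on chromosome 4 and 16.1 on chromosome 9, 6.97 on chromosome 3 and 1.18 on chromosome X, against 12.7 over the genome. All 4-list domains numbered 40.9, 38.5, 20.7 and 4.91 per 100 H3K4me3 regions on the same chromosomes, against 31.1 over the genome. The 25 on chromosome X stood against 509 H3K4me3 regions.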

How the data were processed

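ChIP-seq peak lists of 8 libraries (H3K4me3 and H3K27me3, 4 conditions) were used. The 4 input samples were not used here. Per the submitters' processing notes, the tools were Bowtie 0.12.7 and MACS 1.4.2 and the build mm9. The deposited score is minus 10 times the log10 of the peak's p-value, per the file headers, and no list holds a score under 80, so weaker peaks may have been left out. Peaks were listed per library, not on pooled libraries. Starts were taken to count from 0 and are printed counting from 1. The members, classes and measures were chosen with earlier results of these data known.

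Joining, covered length, score percentile (highest score in a domain, ranked in its own list) and edge-to-edge distance were computed in Python 3.11.15 with numpy 2.4.6, pandas 2.3.3 and scipy 1.17.1, and figures with matplotlib 3.10.9. The rules were tested on 800 simulated sites of 8 kinds, and each kind gave back the calls, widths and distances put in. Exact (Clopper-Pearson) 95% intervals cover counting error over domains only, and neighbouring domains are not independent. Named regions were the 5 widest, highest and lowest in mean percentile, farthest from and nearest to H3K4me3 and most evenly covered, and the 3 largest ratios per comparison and direction, of which some are described. The common core and the split by score rank were added once values were known. Gene, sequence and promoter steps that needed mm9 were not done.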

Additional observations from a re-analysis of the deposited data

Results flagged for a closer look

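For 9 of the named members the covered length moved at least 1.5-fold in opposite directions with doxorubicin in the 2 genotypes. Each rests on 1 library per condition, and no test of WT against KO was made for it. These members were picked for an extreme ratio in 1 comparison, so that an opposite ratio in a comparison sharing a library is favoured by that choice. With doxorubicin the covered length was longer in WT and shorter in KO cells in 4 of them. Domain chr8:12572643-12579550 had doxorubicin over mock ratios of 4.25 in WT and 0.189 in KO cells, chr2:92278865-92285781 of 1.69 and 0.134, chr18:81839242-81848139 of 2.91 and 0.321, and chr13:41184775-41189600 of 2.46 and 0.445. It was shorter in WT and longer in KO cells in the other 5. Domain chr11:84463274-84469694 had ratios of 0.613 and 1.66, chr2:92998379-93005255 of 0.482 and 2.05, chr11:33579980-33587865 of 0.366 and 2.22, chr1:93624155-93629994 of 0.422 and 3.06, and chr11:94558398-94565347 of 0.388 and 2.99. Several of these ratios rest on a library whose best score was near 80, under which the lists hold no peak. It was 85.4 in WT mock and 80.7 in KO doxorubicin cells at chr8:12572643-12579550, 80.5 in KO doxorubicin cells at chr2:92278865-92285781, and 82.2 in WT mock and 94.3 in KO doxorubicin cells at chr18:81839242-81848139. It was 88.7 at chr11:84463274-84469694 and 84.2 at chr2:92998379-93005255, both in KO mock cells, and 94.9 in WT doxorubicin cells at chr1:93624155-93629994.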

How the results depend on the processing

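Of 210 values recomputed under 12 settings, 115 stayed within 1.5 times the reported count or within the 95% binomial interval of the reported median, and 95 did not. The setting without the WT mock list was chosen after the data had been seen, as were the counts without a common core. Joining only overlapping peaks gave 3813 members, a median width of 3903 bp, a median distance to H3K4me3 of 18494 bp, covered shares of 86.2, 68.7, 63.0 and 60.5% (WT mock, WT doxorubicin, KO mock and KO doxorubicin, the order used below) and score percentiles of 69.8, 69.2, 66.3 and 66.3. Its calls were 1134 lower (29.7% of its members) for WT doxorubicin over mock, and 585 higher (15.3%) and 776 lower (20.4%) for KO doxorubicin over mock. For KO over WT they were 1388 lower (36.4%) in mock and 912 lower (23.9%) in doxorubicin cells. Each count rose with the number of members, but each share was below that of the main rule (35.4, 18.1, 22.9, 42.1 and 27.6%). Joining under 1000 bp gave a width of 4654 bp, shares of 78.5, 59.9, 54.4 and 51.99% and percentiles of 67.1, 65.9, 63.4 and 63.0. A width under 5000 bp left 1030 members of median 3511 bp, 199 without a common core, shares of 80.03, 61.5, 55.8 and 53.6% and percentiles of 59.5, 58.5, 57.7 and 57.5. Its higher and lower calls, in the order of the 4 comparisons in the report, were 80 and 347, 169 and 213, 49 and 418, and 133 and 261, by construction fewer. These were 7.77 and 33.7, 16.4 and 20.7, 4.76 and 40.6, and 12.9 and 25.3% of its members. A score of at least 100 left 302 without a core (18.1% of its members) and 116 higher in WT doxorubicin (6.95%). Its covered shares were 77.2, 59.6, 53.8 and 51.6% and its percentiles 71.8, 71.2, 69.5 and 69.2. Equal list lengths gave percentiles of 64.98, 62.9 and 63.0 in the last 3 libraries. Requiring 50% coverage in every library left 491 members of median 4235 bp, 0 without a core by construction. Covered shares were 87.9, 75.8, 71.8 and 70.4%, percentiles 78.3, 80.2, 77.4 and 79.2, and calls 9 and 54, 24 and 29, 8 and 81, and 12 and 37. Those calls were 1.83 and 11.0, 4.89 and 5.91, 1.63 and 16.5, and 2.44 and 7.54% of these members. With 2-fold, calls were 71 and 386, 185 and 247, 42 and 463, and 136 and 292. Division by library medians gave 364 and 438 for doxorubicin in WT and 304 and 481 for KO in mock cells. The higher share of calls then rose from 19.7 to 45.4% for doxorubicin in WT, from 11.4 to 38.7% for KO in mock and from 34.05 to 44.98% for KO in doxorubicin cells. Without the WT mock list the rule gave 2845 members of median 4430 bp, 575 of them without a core over 3 libraries, shares of 60.6, 54.9 and 53.3% and percentiles of 61.5, 59.6 and 59.5. Each comparison kept more lower than higher calls in every setting that gave it calls. The setting without the WT mock list gives none for the 2 comparisons that use that list. For the other moved values the cause was not tested. No paired analysis was possible because the labels give no replicate numbers and each group has 1 library. An additive fit of genotype and treatment over the 4 libraries, which would take their interaction as error, was not run.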

Other observations

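Some members lay in runs with other H3K27me3 domains. When domains less than 10 kb apart were linked, 853 members (40.4%) stood alone, and 119 (5.64%) were in 37 runs with 3 or more members. Runs were not counted for the other 4-list domains, so these counts do not set the members apart. Another H3K27me3 domain lay within 10 kb of 59.6% of members and 56.3% of all 4-list domains. The run with the most members, chosen after its values were seen, spanned 56311 bp at chr9:64358987-64415297. It held 6 H3K27me3 domains, all of them members, and no H3K4me3 region. A run of 8 domains at chr5:114985783-115064558 held 5 members and 2 H3K4me3 regions. Among members, the share past 1.5-fold in at least 1 of the 4 comparisons was 91.1%, 89.4%, 84.8% and 54.3% from the lowest to the highest of the 4 groups by score rank, and 85.8%, 85.96%, 77.4% and 47.2% after division by the library medians. All 4-list domains, members included, had 91.1%, 89.8%, 85.7% and 43.04% in the same ranges of rank, and those under 10 kb with H3K4me3 had 88.9%, 86.2%, 81.6% and 37.96%. After the division these were 86.2%, 87.7%, 79.9% and 37.2%, and 84.1%, 89.4%, 78.5% and 39.6%.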
